A study of Mus musculus with 8 samples.

Results

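The tricarboxylic acid (TCA) cycle enzymes described here are encoded by 9 nuclear genes, Cs, Idh3a, Idh3b, Idh3g, Ogdh, Dlst, Suclg1, Fh1 and Mdh2, of 33105 genes in the count table. They were chosen by name, each symbol matched exactly 1 Ensembl identifier, and all 9 passed the filter on low counts. Their transcripts were measured by mRNA sequencing in hearts of C57BL/6J mice, in 4 libraries of the group MR (mitral regurgitation produced by a minimally invasive operation, which loads the heart with extra volume) and 4 libraries of the group Sham. The study asked which pathways take part when such a heart grows. Strain and tissue are the same in both groups. No source used here states the part of the heart, the time after the operation, age or sex. Nor does any state that each library is a separate animal, so the p-values rest on differences among these libraries, some of which may be technical.

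The cycle runs in the mitochondrial matrix, where it oxidises the acetyl groups that fatty acids, glucose, ketones and amino acids deliver, and passes the electrons to the respiratory chain as NADH and FADH2. Heart muscle draws most of its ATP from this route and is packed with mitochondria. Citrate synthase opens the cycle, the isocitrate and 2-oxoglutarate dehydrogenases are its regulated oxidative steps, and fumarase and malate dehydrogenase return the carbon skeleton to oxaloacetate.

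None of the 9 genes passed the test over all genes, and all 9 had log2 fold changes slightly below 0, from −0.27 to −0.06 with a median of −0.10. Over all 16603 genes tested the median was 0.00. The test was the quasi-likelihood F test of edgeR with p-values adjusted over all genes, where an adjusted p under 0.05 counts as a change. By this rule 0.458% of all genes changed and 0.217% were lower in MR, a background against which 0 of 9 does not stand out. A value below 0 was held by 49.6% of all genes, and by 67.6% of the 1297 genes that averaged at least 100 CPM (each gene's counts divided by its library's scaled total, scaled by trimmed mean of M-values). At an unadjusted p under 0.05 there was 1 of the 9 (Idh3g), against 15.1% of all genes. DESeq2 called 1 of the 9, also Idh3g, and limma-voom with quality weights called 0. Of all 16603 genes, DESeq2 called 688 and limma-voom 429, against 76 in edgeR.

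Total counts ran from 42291511 to 58658094 per library, and the 9 genes held between 11738 counts (Suclg1) and 116889 counts (Ogdh) in a library, so counting error is small beside the spread between libraries. Sham replicates 1 and 3 stood apart from the other Sham libraries. On the first principal component Sham replicate 3 scored −7.2, nearer to the MR libraries at −22.8 to −12.6 than to the other Sham libraries at 15.7 to 32.4. The sample quality weight that limma-voom gave Sham replicate 1 was 0.40, and the other 7 libraries had weights of 0.76 to 1.77. With all 8 libraries 76 genes changed in the whole table, without Sham replicate 3 there were 887, and without Sham replicate 1 there were 93.

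Short stretches of promoter show how the genes differ around their starts. RefSeq lists promoters, from 250 bases before to 50 bases after each start, for 8 of the 9 genes on GRCm38.p6. They were searched on both strands for a binding element of the oestrogen-related receptors (TCAAGGTCA), an element of NRF1 (GCGC, any 2 bases, GCGC), the core bound by ETS factors such as GABPA (CCGGAAG) and the cyclic AMP response element (TGACGTCA). The first element was in no promoter of the 8 genes, against 0.466% of all 27025 genes listed and 0.423% of all 32851 promoters. The NRF1 element was also in none of the 8, against 7% of all genes and 6.23% of all promoters. The ETS core was in 3 of the 8 (Idh3b, Idh3g and Dlst), against 9.93% of all genes and 8.86% of all promoters. The cyclic AMP element was in 2 of the 8 (Ogdh and Mdh2), against 2.03% of all genes and 1.79% of all promoters. Promoters were also listed for 7 other genes of the cycle described below. The NRF1 element was in 4 of those 7 (Dld, Sucla2, Sdha and Sdhd) and the first element in 1 (Sdhd). The ETS core was in 2 (Sdhb and Sdhd) and the cyclic AMP element in 0. Each sequence is shown 5′ to 3′ on the strand of its gene with the element in capitals, because these are the only matches found in the 8 genes. Ogdh has 6 listed starts, and its element lies 51 bases before one of them. The Idh3b and Mdh2 elements lie 5 and 127 bases before their RefSeq starts, but inside the gene coordinates given below, which are from GENCODE.
Idh3b, chr2:130284425-130284481, minus strand: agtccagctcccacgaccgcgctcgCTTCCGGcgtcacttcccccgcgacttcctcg
Idh3g, chrX:73786970-73787026, minus strand: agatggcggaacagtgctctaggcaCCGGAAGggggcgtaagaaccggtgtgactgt
Dlst, chr12:85110809-85110865, plus strand: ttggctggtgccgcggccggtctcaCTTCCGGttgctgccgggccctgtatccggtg
Ogdh, chr11:6291521-6291578, plus strand: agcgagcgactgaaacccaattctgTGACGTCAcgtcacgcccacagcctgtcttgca
Mdh2, chr5:135778497-135778554, plus strand: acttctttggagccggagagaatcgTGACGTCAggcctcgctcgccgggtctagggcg

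Cs encodes citrate synthase, which joins acetyl-CoA to oxaloacetate (ENSMUSG00000005683, protein-coding, chromosome 10, 128337734 to 128362479, GRCm38). It had 1424, 1346, 1245 and 1324 CPM in MR replicates 1 to 4, against 1394, 1491, 1324 and 1430.2 CPM in Sham replicates 1 to 4. The groups overlapped over most of their range, and MR replicate 3 was the lowest of all 8 libraries. The mean was 1335 ± 73.7 CPM in MR and 1410 ± 69.8 CPM in Sham (SD, n = 4 each), so that the log2 fold change was −0.08 (SE 0.07, edgeR adjusted p = 0.67). The 95% interval of the difference ran from −15.2% to 5.75%.

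**Figure D1:**
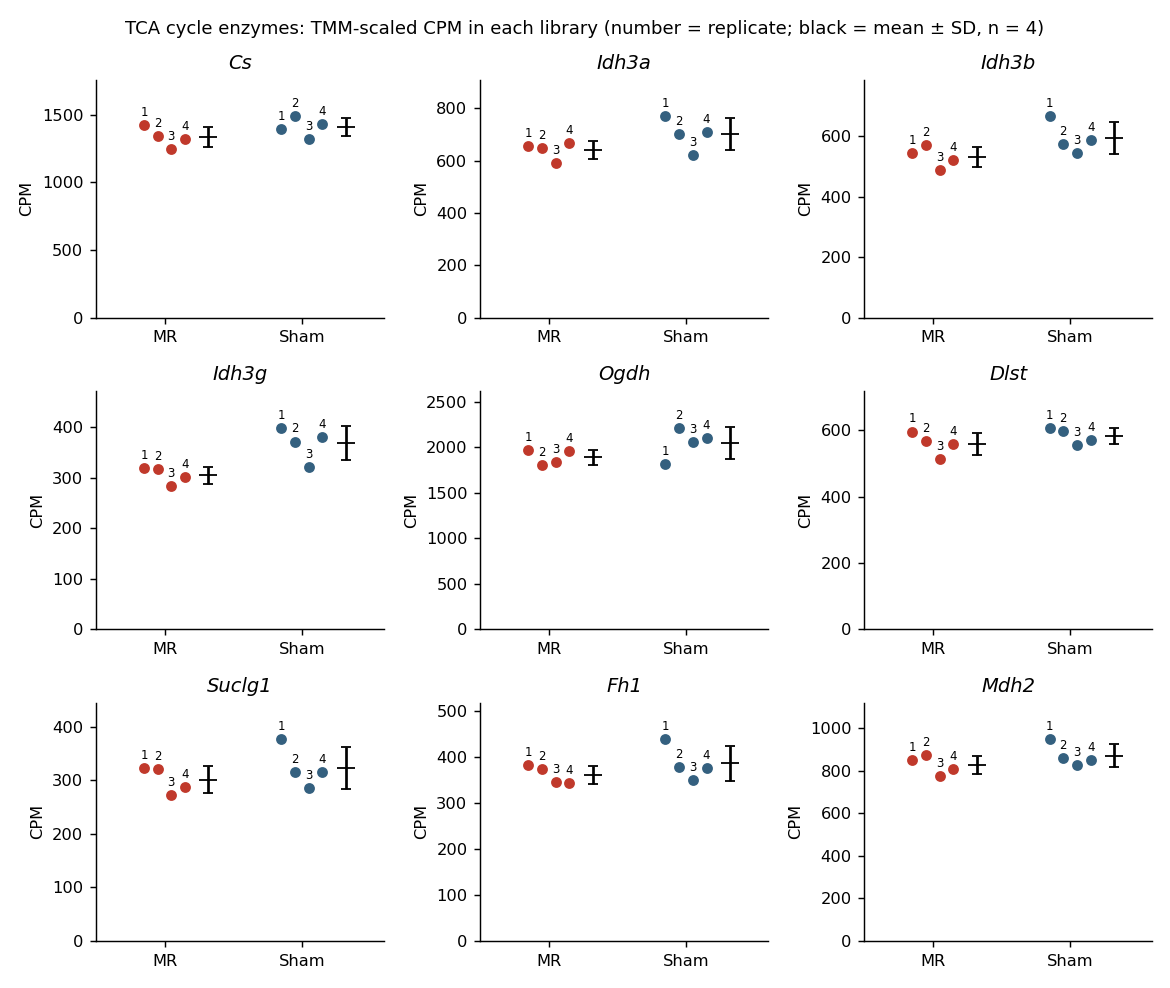
Transcript level of each of the 9 TCA cycle enzymes in CPM (y axes, from 0) in the MR and Sham libraries (points, with the replicate number), with the mean ± SD of each group in black (n = 4). The groups overlap in 8 of the panels, and in Idh3g the highest MR library (318 CPM) lies just under the lowest Sham library (320.0 CPM).

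The NAD-dependent isocitrate dehydrogenase, which turns isocitrate into 2-oxoglutarate and yields NADH, has 3 subunits. In the main edgeR fit these 3 had the lowest fold changes of the 9, but Idh3a and Idh3b did not keep that rank in every fit. In limma-voom Ogdh was at −0.15, against −0.11 for Idh3a and −0.13 for Idh3b. Without Sham replicate 1 Ogdh was at −0.17, against −0.09 for Idh3a and −0.11 for Idh3b. Idh3g, a regulatory subunit (ENSMUSG00000002010, protein-coding, chromosome X, 73778963 to 73786897), had 318, 316, 283 and 301 CPM in MR replicates 1 to 4, against 399, 371, 320.0 and 379 CPM in Sham replicates 1 to 4. All 4 MR values lay below all 4 Sham values, a pattern found in 3.91% of all genes tested, but the gap between MR replicate 1 and Sham replicate 3 was under 2 CPM. The means were 305 ± 16.5 CPM in MR and 367 ± 33.6 CPM in Sham (SD, n = 4 each). The log2 fold change was −0.27 (SE 0.08, 95% interval −0.44 to −0.10, adjusted p = 0.13 in edgeR), a difference of −17.1% with an interval from −26.4% to −6.56%. Idh3g did not pass in edgeR with the filter on low counts and all 8 libraries. It passed without Sham replicate 3 (log2 fold change −0.33, adjusted p = 0.0201), in DESeq2 (adjusted p = 0.0279) and in edgeR without the filter on low counts (adjusted p = 0.0381). Those fits called 887, 688 and 936 genes in the whole table, against 76 in the main fit.

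Idh3b, the other regulatory subunit (ENSMUSG00000027406, protein-coding, chromosome 2, 130279309 to 130284547), had 547, 570.0, 490.2 and 523 CPM in MR replicates 1 to 4, against 667, 575, 547 and 589 CPM in Sham replicates 1 to 4. MR replicates 1, 3 and 4 lay below every Sham library, MR replicate 1 by less than 1 CPM, while MR replicate 2 lay inside the Sham range. The log2 fold change was −0.16 (SE 0.08, adjusted p = 0.379 in edgeR), with an interval from −20.6% to 1.05%. Idh3a, the catalytic subunit (ENSMUSG00000032279, protein-coding, chromosome 9, 54586334 to 54604661), had 657, 648, 593 and 668 CPM in MR, against 771, 702, 621 and 710.3 CPM in Sham. Its 4 MR values were all below the Sham median, and Sham replicate 3 lay among them. The log2 fold change was −0.13 (SE 0.08, adjusted p = 0.486 in edgeR), with an interval from −18.8% to 3.16%.

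The 2-oxoglutarate dehydrogenase complex, which makes succinyl-CoA, is represented by its first and second components. Ogdh, the decarboxylase (ENSMUSG00000020456, protein-coding, chromosome 11, 6291633 to 6356642), had 1963, 1805, 1833 and 1958 CPM in MR replicates 1 to 4, against 1810.2, 2214, 2051 and 2105 CPM in Sham replicates 1 to 4. It was the only one of the 9 for which Sham replicate 1 was the lowest of the Sham libraries. The log2 fold change was −0.11 (SE 0.08, adjusted p = 0.539 in edgeR; 95% interval −17.9% to 4.06%), and it was −0.17 without Sham replicate 1 and −0.07 without Sham replicate 2. Dlst, the succinyltransferase core (ENSMUSG00000004789, protein-coding, chromosome 12, 85110833 to 85134845), had 597, 567, 515 and 558 CPM in MR, against 608, 599, 556 and 571 CPM in Sham. The groups overlapped over most of their range, and the log2 fold change was −0.06 (SE 0.07, adjusted p = 0.741 in edgeR; 95% interval −14% to 6.74%), or −0.02 without MR replicate 3 and −0.09 without MR replicate 1.

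Suclg1 encodes the alpha subunit of succinyl-CoA ligase, which both the GTP-forming and the ATP-forming version of that enzyme contain (ENSMUSG00000052738, protein-coding, chromosome 6, 73248382 to 73276911). It had 323, 321, 273 and 286 CPM in MR replicates 1 to 4, against 377, 315, 285 and 316 CPM in Sham replicates 1 to 4. Sham replicate 1 lay above all others and the remaining 7 libraries were mixed. The log2 fold change was −0.10 (SE 0.09, adjusted p = 0.652 in edgeR; 95% interval −18.7% to 6.84%) and −0.03 without Sham replicate 1.

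At the last steps the groups overlapped as well. Fh1, the mouse fumarase gene (ENSMUSG00000026526, protein-coding, chromosome 1, 175600374 to 175625635), had 381, 373, 345 and 344 CPM in MR replicates 1 to 4, against 438, 378, 349.8 and 377 CPM in Sham replicates 1 to 4. Its log2 fold change of −0.10 (SE 0.08, adjusted p = 0.626 in edgeR; 95% interval −17% to 5.59%) was −0.03 without Sham replicate 1. Mdh2, the mitochondrial malate dehydrogenase (ENSMUSG00000019179, protein-coding, chromosome 5, 135778480 to 135790398), had 851, 873, 775 and 810.3 CPM in MR, against 949, 862, 826 and 852 CPM in Sham. The groups overlapped, and the log2 fold change was −0.08 (SE 0.08, adjusted p = 0.688 in edgeR; 95% interval −15.1% to 6.07%), or −0.04 without Sham replicate 1.

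Across libraries the 9 genes tended to be high or low together. Sham replicate 1 held the highest value of all 8 libraries for 7 of the 9 and Sham replicate 2 for the other 2 (Cs and Ogdh), while MR replicate 3 held the lowest for 7. This was not particular to the 9: Sham replicate 1 was also highest for every other cycle gene described here except Idh2. The mean log2 CPM of the 9 genes, each centred on its own mean over the 8 libraries, was 0.01, −0.02, −0.16 and −0.07 in MR replicates 1 to 4, against 0.15, 0.08, −0.05 and 0.06 in Sham replicates 1 to 4. Sham replicate 3 thus lay within the MR range. The 9 genes summed to 6352 to 7061 CPM in MR and 6879 to 7506 CPM in Sham, ranges that overlap. Such a sum per bulk library cannot tell fewer heart muscle cells from less RNA of these genes per cell.

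**Figure D2:**
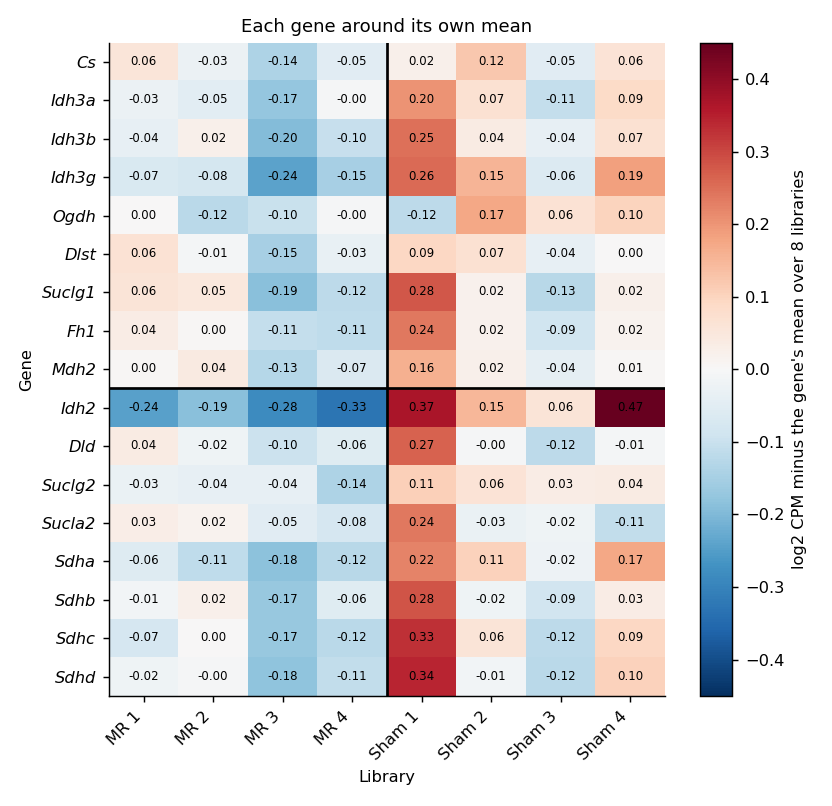
Log2 CPM of each cycle gene (rows; the 9 enzymes above the line, the other cycle genes below it) minus the gene's own mean, in each library (columns, MR left of the line and Sham right of it). Sham 1 is the highest library for 7 of the 9 enzymes and MR 3 the lowest for 7, and Ogdh departs from the others in Sham 1 at −0.12.

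The heart muscle markers were mixed. The 10 cardiomyocyte markers fixed for this purpose (Myh6, Tnnt2, Tnni3, Actc1, Actn2, Ryr2, Pln, Myl2, Mb and Ckm) summed to 48971 to 55458 CPM in MR and 53366 to 61498 CPM in Sham. None of the 10 changed in edgeR, and DESeq2 called 3 (Tnnt2, Tnni3 and Myl2), against 688 of all 16603 genes. An unadjusted p under 0.05 was held by 5 of the 10, against 15.1% of all genes. Log2 fold changes below 0 were held by 8 of the 10, against 67.6% of genes averaging at least 100 CPM. The median of the 10 was −0.12. Tnnt2, Tnni3, Myl2 and Myh6 were lowest, at −0.36, −0.33, −0.30 and −0.28, while Actn2, Mb and Ryr2 were at 0.00, −0.01 and −0.06, and Ckm and Actc1 at 0.09 and 0.18. For every 1000 CPM of these markers there were 127, 131, 130 and 127 CPM of the 9 enzymes in MR replicates 1 to 4, against 122, 122, 129 and 121 CPM in Sham replicates 1 to 4. The summed markers are carried by abundant genes such as Myh6, so this quotient depends on which markers are taken: the enzymes' median of −0.10 lay above the fold changes of Tnnt2, Tnni3, Myl2, Myh6 and Pln (−0.17) and below those of the other 5. The part of the markers in the small differences was not tested. Markers of atrial muscle, led by Nppa, summed to 93.5 to 212 CPM in MR and 45.6 to 70.4 CPM in Sham, but Bmp10 was at 0 in 6 of the 8 libraries and Sln did not exceed 1.02 CPM in any. The labelled tissue was checked by Myh6, the main adult mouse heart myosin, at 17523 to 20363 CPM in MR and 20765 to 25388 CPM in Sham, against a few CPM or less of the genes that define skeletal muscle and white or brown fat: Myh4 and Ucp1 were at 0 in 7 of the 8 libraries, Myh1 and Myh2 in 5, and Adipoq did not exceed 0.703 CPM in any. Other genes of those lists are also expressed in heart and were not near 0. Acta1, skeletal actin, had 637 to 801 CPM in MR and 104 to 342 CPM in Sham (log2 fold change 1.80, adjusted p = 0.0842 in edgeR). Cidea of the brown fat list had 19.7 to 23.4 CPM in MR and 20.9 to 24.96 CPM in Sham. The 6 skeletal muscle markers summed to 1739 to 1875 CPM in MR and 1105 to 1379 CPM in Sham, mostly Ckm and Acta1, and the part of these differences in the enzyme values was not tested.

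Of the markers of other cell types, 2 of 7 fibroblast genes rose, Col1a1 and Col1a2 (log2 fold change 0.81 and 0.63, adjusted p 0.0483 and 0.0159 in edgeR), as did Dio2 of the brown fat list (0.94, adjusted p = 0.0201). Over all genes tested 0.458% changed in either direction. The fibroblast genes Lum and Pdgfra, at 0.19 and 0.20, and Dcn, Gsn and Tcf21, at −0.01, −0.02 and −0.05, did not pass. None of the tested endothelial (6), smooth muscle and pericyte (6), macrophage (6), neutrophil (4), erythroid (5), atrial (4), skeletal muscle (3) or white fat (1) markers passed in edgeR. DESeq2 called Nppa, Acta2, Cspg4, Mrc1, S100a8, S100a9, Retnlg and Acta1 among them, and limma-voom called Cspg4, Mrc1 and Acta1. In the whole table DESeq2 called 688 genes and limma-voom 429. The neutrophil markers summed to 2.9 to 5.56 CPM in MR and 7.61 to 54.9 CPM in Sham. The fibroblast markers summed to 1716 to 1847 CPM in MR and 1667 to 1732 CPM in Sham, and their part in the enzyme values was not tested either.

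Another 8 genes of the cycle had the same sign. All 8 had log2 fold changes below 0, with a median of −0.14, against 49.6% of all genes and 67.6% of genes averaging at least 100 CPM. In edgeR 1 of the 8 fell and 7 did not pass, where 0.217% of all genes were lower in MR. Idh2, the NADP-dependent isocitrate dehydrogenase of mitochondria, was the gene that fell, with 1085, 1128, 1055 and 1022 CPM in MR replicates 1 to 4, against 1657, 1423, 1336 and 1774 CPM in Sham replicates 1 to 4 (log2 fold change −0.53, SE 0.09, adjusted p = 0.0293 in edgeR). That call was lost in 6 of the 8 fits with a library left out, with adjusted p values up to 0.114, and held without Sham replicate 1 and without Sham replicate 3, while the log2 fold change stayed between −0.60 and −0.46 in all 8. Sdha, the catalytic subunit of succinate dehydrogenase, was at −0.24 (adjusted p = 0.147 in edgeR), with 1550, 1492, 1420 and 1480 CPM in MR replicates 1 to 4, all below the 1886, 1736, 1589 and 1820 CPM of Sham replicates 1 to 4. Among all genes tested, 3.91% had all MR values below all Sham values. Sdha passed in DESeq2 (adjusted p = 0.0182) and without Sham replicate 3 (adjusted p = 0.0375), fits that called 688 and 887 genes in the whole table.

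The remaining subunits of succinate dehydrogenase, Sdhb, Sdhc and Sdhd, were at −0.11, −0.19 and −0.17 (adjusted p 0.595, 0.347 and 0.436 in edgeR), and without Sham replicate 1 at −0.03, −0.11 and −0.08. Dld, the third component of the 2-oxoglutarate and pyruvate dehydrogenase complexes, was at −0.07 (adjusted p = 0.74), and Sucla2 and Suclg2, the ATP-forming and GTP-forming beta subunits of succinyl-CoA ligase, were at −0.05 and −0.12 (adjusted p 0.845 and 0.405). The sign of Dld and of Sucla2 was not stable: without Sham replicate 1 they were at 0.00 and 0.03. The MR values of Suclg2, at most 216 CPM, all lay below its Sham values, at least 226 CPM. That pattern was held by 3.91% of all genes tested. Suclg2 has a processed pseudogene, Gm15163, that matches 1302 bases of its transcript at 98.9% identity and held 5.44% as many counts, so reads may be split between them. Among the 9 enzymes only Cs had such a copy at 90% identity over 200 bases or more, and its copies, Csl and Gm48254, held 0.0133% and 0.0016% as many counts.

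**Figure D3:**
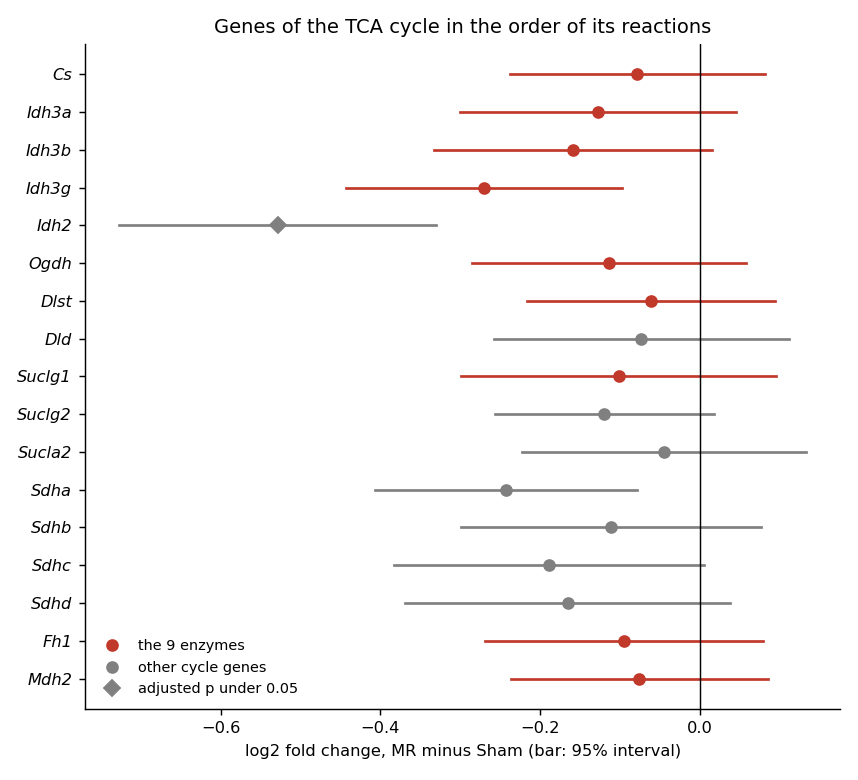
Log2 fold change (x axis, MR minus Sham) with its 95% interval for 17 cycle genes in the order of the reactions, the 9 enzymes in red and the other cycle genes in grey. All 17 points lie below 0, the interval of Idh3g (−0.44 to −0.10) is the only red one that leaves out 0, and Idh2 (diamond) is the only gene with an adjusted p under 0.05.

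Ratios between genes of the same library do not depend on how libraries are scaled, and 10 were compared with an exact two-sided permutation test over the 8 libraries, adjusted over the 10, of which 9 are described. With 70 arrangements the smallest p is 0.0286, and at least 6 ratios at that value would be needed for any to pass after adjustment. Of the 9 ratios described, 3 reached it, each with an adjusted p of 0.0714, and none passed. The ratio of Idh3a to Idh3g was 2.06, 2.05, 2.1 and 2.22 in MR replicates 1 to 4, against 1.93, 1.89, 1.94 and 1.87 in Sham replicates 1 to 4. The ratio of Idh3b to Idh3g was 1.72, 1.8, 1.73 and 1.74 in MR, against 1.67, 1.55, 1.71 and 1.55 in Sham. All MR libraries thus held less Idh3g transcript per transcript of each partner subunit than any Sham library, Sham replicate 3 included, although for Idh3b to Idh3g the gap was under 0.01. Both ratios share Idh3g, whose own values did not overlap between the groups. How many other gene pairs separate in this way was not computed. The differences in mean log2 ratio were 0.14 for Idh3a to Idh3g and 0.11 for Idh3b to Idh3g, and with a library left out they ran from 0.12 to 0.16 and from 0.09 to 0.14. The mean log2 ratio of Idh3a to Idh3b was 0.27 ± 0.07 in MR and 0.24 ± 0.05 in Sham (SD, n = 4 each; exact permutation p = 0.571).

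The third ratio without overlap set the NAD-dependent against the NADP-dependent enzyme. Idh3a to Idh2 was 0.606, 0.575, 0.562 and 0.653 in MR replicates 1 to 4, against 0.465, 0.493, 0.465 and 0.4 in Sham replicates 1 to 4, a difference of 0.39 in mean log2 ratio. Idh2, the gene below the line, had the lower fold change of the pair. Mdh2 to Mdh1, the mitochondrial against the cytosolic malate dehydrogenase, was at 0.09 with overlapping groups (exact permutation p = 0.143, adjusted p = 0.286). Ogdh to Dlst, Dlst to Dld, Suclg1 to Suclg2 and Suclg1 to Sucla2 were at −0.05, 0.00, 0.02 and −0.06 (adjusted p 0.571 to 0.943 by the exact permutation test).

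**Figure D4:**
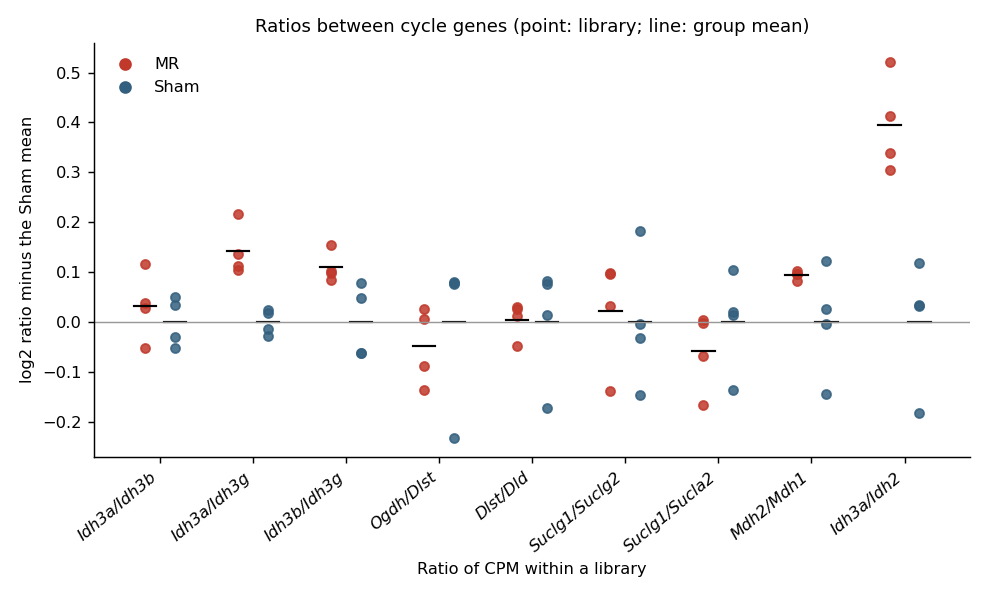
Log2 ratio of the CPM of 2 genes in the same library minus the Sham mean of that ratio (y axis), for 9 ratios (x axis), with MR libraries in red, Sham libraries in blue and group means as lines. MR and Sham points do not overlap for Idh3a/Idh3g, Idh3b/Idh3g and Idh3a/Idh2, the 3 ratios that reached 0.0286 in the exact permutation test.

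Levels were compared between genes per kilobase of transcript, taking the longest principal transcript of each gene. On that scale Mdh2 led with 568 ± 29.8 CPM per kilobase in MR and 599 ± 36.7 in Sham (SD, n = 4 each). Ogdh followed at 458 ± 20 in MR and 496 ± 41.3 in Sham, and Cs at 456 ± 25.2 in MR and 482 ± 23.9 in Sham. The 8-library ranges of these 3 neighbours overlapped, and a gap without overlap separated Cs from Idh3b, at 329 ± 21.1 in MR and 368 ± 31.9 in Sham. Idh3a (267 ± 13.9 in MR and 292 ± 25.6 in Sham), Idh3g (229 ± 12.4 and 276 ± 25.2), Suclg1 (198 ± 16.5 and 213 ± 25.4) and Dlst (202 ± 12.2 and 211 ± 8.79) came next, each overlapping its neighbour in range. Fh1 was the lowest, at 137 ± 7.29 in MR and 146 ± 14.2 in Sham, below the range of Dlst. When the union of all annotated exons was used as the length, Ogdh led with 346 ± 15.1 in MR and 375 ± 31.3 in Sham, Fh1 moved above Suclg1 and Dlst, and Dlst, whose exon union of 9559 bases is far longer than its principal transcript, was the lowest at 58.5 ± 3.53 in MR and 61 ± 2.54 in Sham.

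Genes around the cycle, from lists chosen for this purpose, did not pass either. Of 18 genes of pyruvate entry and anaplerosis, 0 rose, 0 fell and 18 did not pass, with a median log2 fold change of −0.08. At an unadjusted p under 0.05 there were 2 of the 18, against 15.1% of all genes. Pccb, a subunit of the propionyl-CoA carboxylase that feeds succinyl-CoA into the cycle, was at −0.23 (adjusted p = 0.17 in edgeR), Pdp2, a phosphatase that activates pyruvate dehydrogenase, at −0.24 (adjusted p = 0.21), Pdk2, a kinase that inactivates it, at −0.13 (adjusted p = 0.425), and Mpc1, a subunit of the mitochondrial pyruvate carrier, at −0.13 (adjusted p = 0.466). Of 14 genes of cytosolic counterparts and shuttles none passed in either direction, with a median of −0.04. Here 1 of the 14 had an unadjusted p under 0.05, against the same 15.1% of all genes. DESeq2 and limma-voom also called 0 in both lists. Only Pdk2 of these lists had no overlap between the groups, with at most 306 CPM in MR and at least 312 CPM in Sham. All MR values lay below all Sham values in 3.91% of all genes tested. Got1 and Got2, the aspartate aminotransferases of the malate-aspartate shuttle, were at −0.26 and −0.15 (adjusted p 0.179 and 0.348), Mdh1 at −0.18 (adjusted p = 0.408), and Slc25a13, an aspartate-glutamate carrier, at 0.13 (adjusted p = 0.392). Without Sham replicate 3, where 887 genes passed in the whole table, Pccb and Got1 passed (log2 fold change −0.29 and −0.34, adjusted p 0.0322 and 0.0182).

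Of 17 paralogues and accessory factors, 15 were tested and none passed in either direction in edgeR, DESeq2 or limma-voom (median −0.02). Of the 15, 2 had an unadjusted p under 0.05, against 15.1% of all genes. Csl and Mdh1b, relatives of Cs and Mdh1, had 68 and 3 counts over all 8 libraries and were not tested. Sirt5, a mitochondrial desuccinylase, was at −0.20 (adjusted p = 0.166 in edgeR), Dhtkd1, a relative of Ogdh that acts in lysine breakdown, at −0.26 (adjusted p = 0.221), Sdhaf3, an assembly factor of succinate dehydrogenase, at 0.18 (adjusted p = 0.458), and Sirt3, a mitochondrial deacetylase, at 0.11 (adjusted p = 0.489). All 4 MR values lay below all 4 Sham values for Sirt5 and Dhtkd1, a pattern held by 3.91% of all genes tested.

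Of 12 regulators of mitochondrial gene expression none passed in either direction in edgeR, with a median of −0.09. At an unadjusted p under 0.05 there were 5 of the 12, against 15.1% of all genes. DESeq2 called 2 (Ppargc1b and Esrrb) and limma-voom 1 (Esrrb). Ppargc1b, a coactivator of the oestrogen-related receptors, was at 0.47 (adjusted p = 0.0842 in edgeR) with all MR values above all Sham values, and its relative Ppargc1a was at −0.24 (adjusted p = 0.202). Esrrb, one of those receptors, was at −0.28 (adjusted p = 0.125), and Perm1, a muscle regulator that acts with them, at −0.22 (adjusted p = 0.179) with all MR values below all Sham values. The pattern of Perm1 was held by 3.91% of all genes tested, and the share for the reverse pattern was not computed. The 2 coactivators thus had opposite signs, neither past the threshold in edgeR with the filter on low counts and all 8 libraries. Ppargc1b passed without Sham replicate 3 (adjusted p = 0.0471), in DESeq2 (adjusted p = 0.0152) and without the filter (adjusted p = 0.000178). Esrrb passed in limma-voom with quality weights, in DESeq2, without the filter and with the length trend removed (lowest adjusted p 0.0333). These alternatives also called more genes in the whole table: 887 without Sham replicate 3, 688 in DESeq2, 936 without the filter, 429 in limma-voom and 303 with the length trend removed.

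The genes whose pattern over the 8 libraries was most like that of the 9 enzymes were ranked among 8280 other genes averaging at least 10 CPM, by the root mean square distance between centred log2 CPM profiles. The 10 nearest were Wdr45b, Vars2, Prkaca, Anxa6, Isoc1, Nars2, Mipep, Tmem161a, Poldip2 and Fundc2, at distances of 0.0224 to 0.0321, where a gene with no variation at all would be at 0.0911. None of these 10 changed, and their log2 fold changes ran from −0.15 to −0.08. Small values of that sign follow from the choice, because the genes were picked for their likeness over the same 8 libraries. Of the 9 enzymes themselves Mdh2, at 0.0364, lay nearest to the common profile and Ogdh, at 0.121, farthest. Ogdh thus lay farther from it than a gene with no variation would. Among the lists above, Pcca ranked 12 and Slc25a11 ranked 60, while Idh2 ranked 7111.

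**Figure D5:**
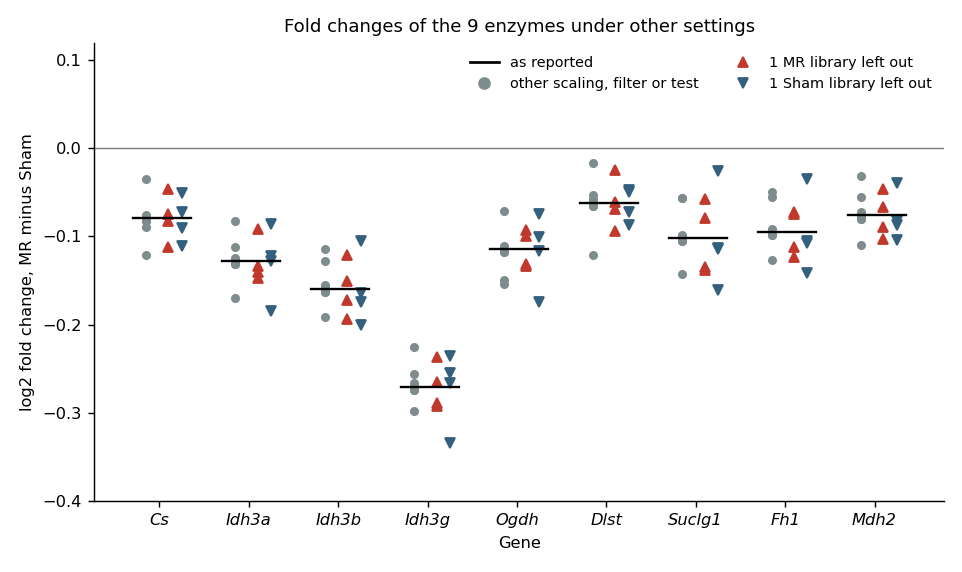
Log2 fold change of each of the 9 enzymes (y axis, MR minus Sham) as reported (black line), under other scalings, filters and tests (grey), and with 1 MR library (red) or 1 Sham library (blue) left out. All points lie below 0, from −0.33 for Idh3g without Sham replicate 3 to −0.02 for Dlst with library totals only.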

How the data were processed

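Per the labels, mRNA libraries were made from ground frozen mouse heart. The authors deposited 1 table of raw read counts per Ensembl gene for all 8 libraries, and the submitters' processing notes name HISAT2 2.0.5 and mm10. No source used here names the counting tool, the annotation or the strand setting. Symbols matched 32350 of 33105 identifiers through GENCODE M21. Genes were filtered with filterByExpr (minimum count 10, minimum total 15), scaled by TMM and tested, MR minus Sham, with the quasi-likelihood F test of edgeR 4.0.16 in R 4.3.3 (robust moderation, Benjamini-Hochberg adjustment over 16603 genes, threshold 0.05), checked on simulated data. Intervals are at 95% from the fit. Log2 CPM used a prior count of 2. Ratios were tested by exact permutation. DESeq2 1.42.0, limma 3.58.1, other scalings and filters, a length correction and leaving out each library were alternatives.

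The members and lists were chosen with earlier results of these data known. All 9 enzymes and 8 other cycle genes are named, with up to 4 genes of lowest p from each other list and the 10 genes most alike. A further cycle gene and its ratio are not reported here. Markers are quoted beside results, and those named individually, Slc25a11 and Pcca were picked after their values were seen. Replicate numbers follow accession order and pair nothing. Sequences are from RefSeq (GRCm38.p6), and copies were found with blastn at 90% identity over 200 bases. Coordinates are from GENCODE M21 (GRCm38).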

Additional observations from a re-analysis of the deposited data

Results flagged for a closer look

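A library far from the other 3 of its group was looked for in 52 groups of 4 values (CPM of 17 cycle genes and 9 log2 ratios, in MR and in Sham), and chance alone marks about 1 in 20 such groups. There were 2. Suclg2, the GTP-forming beta subunit of succinyl-CoA ligase, was at 201 CPM in MR replicate 4, against 215 to 216 CPM in the other MR libraries, and the gap took up 0.926 of the group's range. The log2 ratio of Ogdh to Dlst was 1.57 in Sham replicate 1, against 1.88 to 1.89 in the other Sham libraries, and the gap took up 0.983 of the range. Sham replicate 1 was the highest library for Dlst and the lowest Sham library for Ogdh.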

How the results depend on the processing

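All 9 enzymes had log2 fold changes below 0 under all 17 alternatives. Leaving out each library moved their median between −0.14 and −0.07, and it was −0.06 with library totals only and −0.14 with the length trend removed. The number of enzymes called was 1 (Idh3g) without the filter, 1 in DESeq2 and 0 to 1 with a library left out, the 1 being without Sham replicate 3. The count of genes called in the whole table was 936 without the filter, 303 with the length trend removed, 688 in DESeq2 and 429 in limma-voom, against 76. With a library left out it ran from 3 to 887: 16, 10, 14 and 41 without MR replicates 1 to 4, and 93, 3, 887 and 6 without Sham replicates 1 to 4. The cause was not tested. Of the genes called, 52.6% were higher in MR, 75.7% with library totals only and 37.3% with the length trend removed. Signs turned for Dld, at 0.00405 without Sham replicate 1 (−0.13 to 0.00 over the libraries left out), and for Sucla2, at 0.000344 with library totals only, 0.00614 in limma-voom and 0.0257 without Sham replicate 1 (−0.0879 to 0.0257). With a library left out the ratios have 35 arrangements, and only their differences in mean log2 ratio are described. Dlst to Dld ran from −0.05 to 0.03 and Suclg1 to Suclg2 from −0.03 to 0.08. No paired analysis was possible because the labels give no shared replicate numbers.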
